A study of Mus musculus with 12 samples.

Results

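The Hox clusters, which encode the transcription factors that give body segments and limbs their identity along the head-to-tail axis, also encode miRNAs. This account follows 7 mature miRNAs from these clusters, namely mmu-miR-10a-5p, mmu-miR-10a-3p, mmu-miR-10b-5p, mmu-miR-10b-3p, mmu-miR-196a-5p, mmu-miR-196b-5p and mmu-miR-615-3p (the prefix for mouse is left out from here on), through postnatal growth of mouse muscle. They were chosen by name for their place in a Hox cluster, and they are 7 of the 1966 mature miRNAs in the count table. The libraries hold small RNA of the quadriceps of C57BL/6J mice, all wild type, killed at P1, P5, P14 or P90, that is, 1, 5, 14 or 90 days after birth. Each age was represented by 3 libraries, and the methods of the study state that separate mice were taken for each time point. No treatment or engineered allele distinguishes the groups, so age is the only factor that the sample titles give. They name no sex and no batch. All tissue was whole muscle with its vessels, nerves and connective tissue.

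A mature miRNA is cut from one arm of a hairpin, the 5p or the 3p arm, and loaded into an Argonaute protein, where its seed, bases 2 to 8, pairs with target mRNAs. The miR-10 family lies near the Hox4 genes and the miR-196 family near the Hox9 and Hox10 genes, and like the neighbouring Hox genes these miRNAs mark axial position in the embryo. Both families are known to target Hox mRNAs. Adult tissues keep a Hox code according to where along the axis they formed, and a hindlimb muscle such as the quadriceps belongs to the posterior body, where miR-196 is known to be expressed.

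The 7 members carry 5 seeds, and 2 of these are each shared by a pair of paralogs. The mature sequences of the 5 most abundant, from RefSeq (GRCm38.p6), are given from 5′ to 3′ with the seed in capitals, because the results are ordered by family and seed.
miR-10a-5p: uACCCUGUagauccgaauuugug
miR-10b-5p: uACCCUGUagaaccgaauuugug
miR-196a-5p: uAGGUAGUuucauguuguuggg
miR-196b-5p: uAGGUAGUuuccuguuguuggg
miR-615-3p: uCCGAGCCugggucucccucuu
A sequence was found for all 7 members. Counted from 1 at the 5′ end, miR-10a-5p and miR-10b-5p differ by the single substitution U12A, and miR-196a-5p and miR-196b-5p by A12C. Each pair therefore shares its seed, and neither seed occurs in any other of the 1675 miRNAs of the table that have a RefSeq mature sequence. The single differing base also decides to which paralog a read is assigned. The 3p arms of the miR-10 hairpins differ at 3 positions, A3G, U9A and A10U, of which A3G lies in the seed, so that the 3p arms do not share a seed.
miR-10a-3p: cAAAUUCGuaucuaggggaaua
miR-10b-3p: cAGAUUCGauucuaggggaaua

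These miRNAs come from 6 hairpins in all 4 Hox clusters (coordinates on GRCm38, RefSeq). Mir10a (chr11:96317165-96317274, + strand) lies 992 bp from Hoxb4, between Hoxb5 and Hoxb4 and within the span of Hoxb3. In GENCODE no transcript of another gene spans this hairpin. Mir10b (chr2:74726070-74726137, + strand) lies within the spans of Hoxd3 and Hoxd4, in introns of both in GENCODE. The miR-196a-5p sequence is encoded by 2 hairpins, Mir196a-1 (chr11:96265164-96265265, + strand) between Hoxb13 and Hoxb9 and Mir196a-2 (chr15:102973350-102973434, + strand) between Hoxc10 and Hoxc9. Its reads cannot be assigned to one of them. In GENCODE, Mir196a-1 lies in an intron of the long non-coding RNA Gm53 and Mir196a-2, like Mir615, in an intron of Hoxc5. Mir196b (chr6:52230081-52230165, − strand) lies between Hoxa9 and Hoxa10, where GENCODE places it in an exon of at least 1 Hoxa9 transcript. Mir615 (chr15:103014910-103015001, + strand) lies in an intron of Hoxc5. The other 6 mature sequences each had 1 exact match in the GRCm39 genome, and miR-196a-5p had 2. No mature miRNA on the other strand of any of these hairpins is listed in RefSeq.

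**Figure D1:**
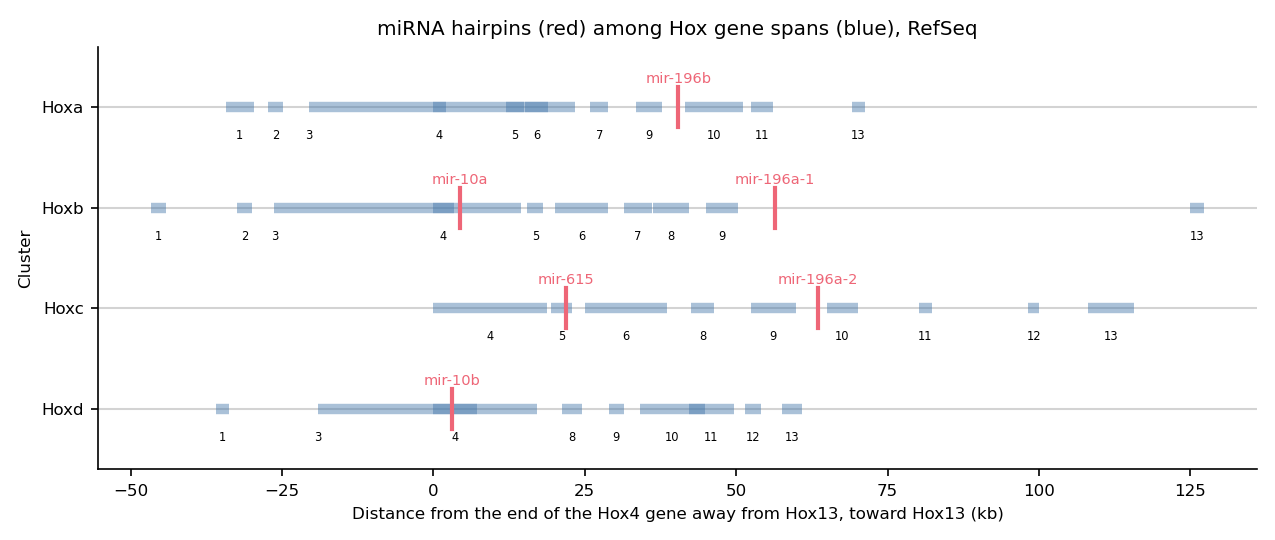
Position of the 6 hairpins (red ticks) among the Hox gene spans (blue bars, numbered by gene) in each cluster, in kb from the Hox4 gene toward the Hox13 gene, from RefSeq. Mir10a and Mir10b sit 4.42 and 3.06 kb along this axis, and Mir196b, Mir196a-1 and Mir196a-2 at 40.4, 56.4 and 63.5 kb.

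Library totals ranged from 20363495 to 53126984 counts, and miR-1a-3p, the most abundant muscle miRNA, ranked first in all 12 libraries. MiR-1a-3p held 53.0% to 56.8% of the counts at P90. Its share had been 22.2% to 26.8% in the P1 libraries, 28.8% to 30.8% in those of P5 and 16.05% to 22.8% in those of P14. Levels of the Hox miRNAs are therefore given as CPM, that is, counts relative to the size of the library, after scaling that size with the trimmed mean of M-values (TMM CPM), which is less moved by a single dominant miRNA. TMM factors were 0.247 to 0.384 at P90 and 1.24 to 1.72 at the earlier ages. The libraries also differed in how counts depended on the GC content of the mature sequence. The slope, as log2 level per 10 percentage points of GC over 309 miRNAs, was 0.378 to 0.562 at P14, −0.596 to −0.382 at P90 and between −0.0115 and 0.0757 at P1 and P5. Both the scaling and the GC slope move with age. An effect of library preparation that goes with age cannot be told apart from age here.

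All 7 members were detected in every library, with miR-10b-5p highest (37048 to 112993 counts, rank 33 to 75) and miR-10a-3p lowest (89 to 294 counts, rank 270 to 402). Together they held 0.220% ± 0.0397 of the raw counts at P90. At P1, P5 and P14 they had held 0.573% ± 0.115, 0.504% ± 0.0330 and 0.816% ± 0.0986 (SD, n = 3 libraries each). The 95% Wilson interval of the share of a library was at most 0.00378 percentage points on each side, for counting error only. When miR-1a-3p and miR-1b-5p were left out of the total, the share was 0.915% ± 0.126, 0.917% ± 0.0449, 1.181% ± 0.119 and 1.24% ± 0.0401 in order of age (SD, n = 3). The members thus made up a smaller part of the whole at P90. Once miR-1 was set aside their part was larger in every P90 library than in any of P1 or P5, and it overlapped that of the P14 libraries.

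Each age was compared with edgeR's quasi-likelihood test with Benjamini-Hochberg adjustment over the 809 miRNAs tested, and a call means Padj under 0.05. All 7 members passed the filter on low counts. Between P1 and P5 none was called, against 4.45% of all tested miRNAs (2.72% higher and 1.73% lower). At an unadjusted P under 0.05 the number was also 0, and DESeq2 called 0 members, against 73 miRNAs in all. From P5 to P14, 3 members were called (44.4% of all tested), 2 of them upregulated (18% of all) and 1 downregulated (26.3% of all). Between P1 and P14, 3 were called (49.1% of all tested), all upregulated (20.3% of all). From P14 to P90, 2 were called (59.1% of all tested), 1 upregulated (22.4% of all) and 1 downregulated (36.7% of all). Between P1 and P90, 5 of 7 were called (66.4% of all tested), 4 upregulated and 1 downregulated, and the shares of all tested miRNAs were 25.2% up and 41.2% down. The median log2FC of the members was 0.59, and that of all tested miRNAs was −0.72. The ranges of the 3 libraries did not overlap for 4 members from P5 to P14 (54.4% of all tested), 3 from P14 to P90 (61.2%), 4 from P1 to P14 (59.2%) and 6 from P1 to P90 (72.6%), compared with 0 from P1 to P5 (32.5%). Across the 4 ages 5 of 7 members were called, against 72.4% of all tested.

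**Figure D2:**
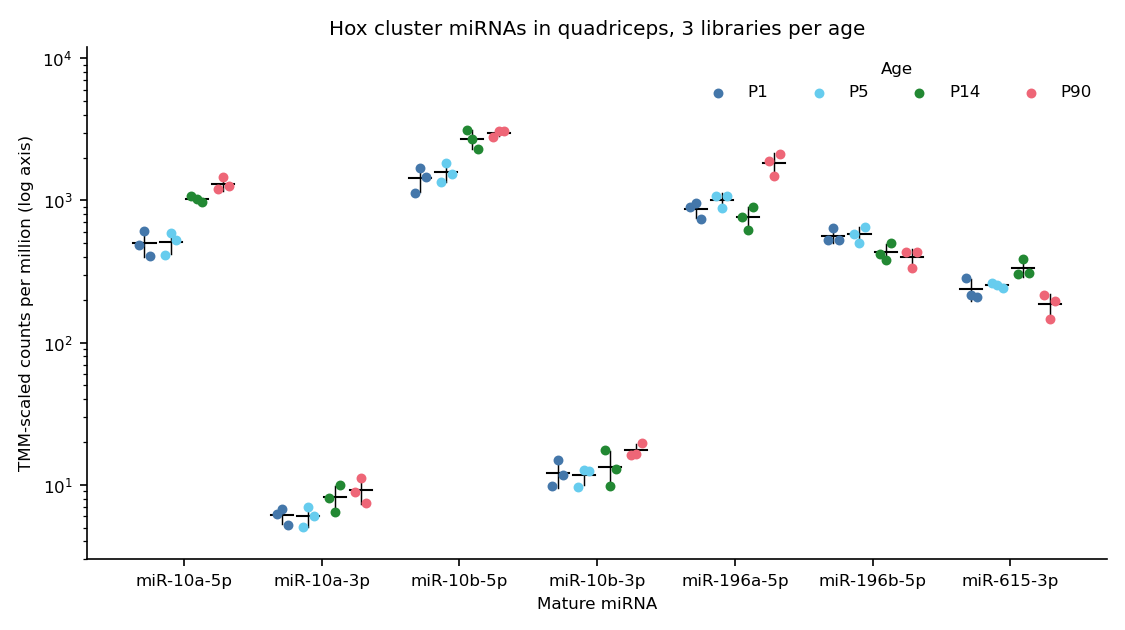
TMM CPM (log axis) of the 7 members by age, with 1 point per library, the mean as a horizontal bar and the SD as a vertical bar (n = 3). MiR-10a-5p and miR-10b-5p are higher at P14 and P90 than at P1 and P5, miR-196a-5p is highest at P90, and miR-196b-5p is lower at P90 than at P1.

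The 5p arms of the miR-10 family, the strands loaded into Argonaute most often, rose together between P5 and P14. MiR-10b-5p stood at 1122, 1697 and 1467 TMM CPM in the P1 libraries and at 1356, 1820 and 1546 at P5. It stood at 3111, 2692 and 2293 at P14 and at 2815, 3074 and 3086 at P90. No library of the later ages reached down to any of the earlier ones. The log2FC was 0.78 ± 0.17 (SE) from P5 to P14 (Padj = 0.00131) and 1.07 ± 0.17 from P1 to P90 (Padj = 3.33e-05, n = 3 against 3), whereas from P14 to P90 it was 0.15 ± 0.16 and missed the threshold (Padj = 0.458). The P14 to P90 step was called higher with RLE size factors (0.51, Padj = 0.0179), in DESeq2 (0.50, Padj = 0.016) and with 2 ages only in the fit (0.46, Padj = 0.0301). With library totals alone it was called lower (−2.10, Padj = 2.71e-07), and with the GC trend removed it was −0.27 (Padj = 0.171).

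MiR-10a-5p, the paralog from the Hoxb cluster, stood at 488, 605 and 404 TMM CPM at P1 and at 410, 589 and 530 at P5. It stood at 1080, 1030 and 978 at P14 and at 1198, 1465 and 1270 at P90. Each P90 library was above each P14 library, and these in turn were above all libraries of P1 and P5. It rose 2.02-fold from P5 to P14 (log2FC 1.01 ± 0.17, Padj = 0.000151) and 2.63-fold from P1 to P90 (log2FC 1.39 ± 0.17, Padj = 2.26e-06). The step from P14 to P90, log2FC 0.35 ± 0.17, missed the threshold (Padj = 0.0867). This step depended on the setting. It was called higher with RLE size factors (log2FC 0.72, Padj = 0.00239), in DESeq2 (0.71, Padj = 0.000386) and with 2 ages only in the fit (0.66, Padj = 0.00445). The same held without the filter on low counts (0.44, Padj = 0.0254) and in 3 of the 12 fits without 1 library. With library totals alone it was called lower (−1.89, Padj = 1.21e-06), and with the GC trend removed it was −0.071 (Padj = 0.725).

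Since both paralogs moved in one direction, their ratio within a library was examined, which does not depend on scaling. In order of age there were 0.355 ± 0.0798, 0.323 ± 0.0202, 0.385 ± 0.0398 and 0.438 ± 0.0342 counts of miR-10a-5p per count of miR-10b-5p (SD, n = 3). An exact permutation test over the 15400 partitions of the libraries gave P = 0.12, and 0.12 after adjustment over the 7 ratios tested, so that a shift of the balance between Hoxb and Hoxd paralogs was not shown. Without P1 replicate 1 or without P1 replicate 3 the adjusted exact P was 0.0282 or 0.037.

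The 3p arms of the same hairpins, usually the discarded strand, were present at far lower levels. MiR-10b-3p ranged from 16.2 to 19.6 TMM CPM at P90, after 9.77 to 14.95 for P1, 9.70 to 12.8 for P5 and 9.73 to 17.5 for P14. Its log2FC from P1 to P90, 0.52 ± 0.23, missed the threshold (Padj = 0.0614), although the ranges of P1 and P90 did not overlap. MiR-10a-3p ranged from 7.41 to 11.2 at P90, after 5.22 to 6.79 for P1, 5.04 to 7.02 for P5 and 6.48 to 9.89 for P14. Its log2FC of 0.59 ± 0.23 from P1 to P90 was called (Padj = 0.034), but the call was lost in 7 of the 12 fits that left out 1 library (Padj up to 0.176), and with the GC trend removed the log2FC was −0.041 (Padj = 0.887). The call was also lost with totals without miR-1 (log2FC 0.15, Padj = 0.585) and without the filter on low counts (log2FC 0.56, Padj = 0.12).

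The 5p arm gained on the 3p arm in both hairpins. In order of age there were 81.3 ± 6.74, 84.2 ± 3.28, 130.3 ± 30.1 and 145 ± 22.1 counts of miR-10a-5p per count of miR-10a-3p (SD, n = 3, adjusted exact permutation P = 0.0083). All 6 libraries of P14 and P90, at 98.7 or more, lay above all 6 of P1 and P5, at 89.1 or less. For miR-10b the ratio was 118 ± 6.42, 135 ± 10.4, 210.4 ± 56.9 and 172 ± 14.2 (adjusted exact permutation P = 0.00227). At P14 the second library, at 276, stood above the other two, both at 178. Both calls held under every alternative run, including removal of the GC trend.

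The miR-196 family showed a different course, and its paralogs parted from P14 to P90. MiR-196a-5p stood at 899.6, 952 and 742 TMM CPM at P1 and at 1083, 878 and 1082 at P5. It stood at 759, 622 and 900.1 at P14 and at 1893, 1483 and 2120.1 at P90. The P90 libraries were above all others, and the earlier ages overlapped. It rose 2.41-fold from P14 to P90 (log2FC 1.27 ± 0.17, Padj = 1.04e-05) and 2.12-fold from P1 to P90 (log2FC 1.08 ± 0.17, Padj = 4.02e-05). From P5 to P14 its log2FC was −0.42 ± 0.17 and missed the threshold (Padj = 0.0606). That step was called in 7 of the 12 fits without 1 library, and with RLE size factors (Padj = 0.0181). It was also called in DESeq2 (Padj = 0.00948), with totals without miR-1 (Padj = 0.0168) and without the filter on low counts (Padj = 0.00689). It was not called with library totals alone, with upper-quartile factors or with the GC trend removed (Padj from 0.506 to 0.599).

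MiR-196b-5p, with the same seed, stood at 530.4, 641 and 523 TMM CPM at P1 and at 580.1, 501 and 654 at P5. It stood at 420.2, 381 and 499 at P14 and at 435, 336 and 431 at P90. All P90 libraries were below all P1 libraries. It fell by 0.49 ± 0.16 on the log2 scale from P1 to P90 (Padj = 0.0122) and by 0.42 ± 0.16 from P5 to P14 (Padj = 0.0444). The P1 to P90 call was lost without P5 replicate 2 (log2FC −0.27, Padj = 0.142), with RLE size factors (log2FC −0.16, Padj = 0.339), in DESeq2 (log2FC −0.18, Padj = 0.304) and with 2 ages only in the fit (log2FC −0.37, Padj = 0.0508), and with upper-quartile factors the log2FC was 1.39 (Padj = 3.99e-07). The P5 to P14 call was lost in 5 of the 12 fits without 1 library, with Padj up to 0.145. It was also lost with library totals alone (log2FC −0.16, Padj = 0.55), with upper-quartile factors (−0.13, Padj = 0.506), with the GC trend removed (−0.32, Padj = 0.122), with 2 ages only in the fit (−0.33, Padj = 0.0658) and with the replicate block (−0.42, Padj = 0.0505).

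The ratio of the paralogs, which no scaling can move, set P90 apart. Per count of miR-196b-5p there were 1.70, 1.48 and 1.42 counts of miR-196a-5p in the P1 libraries and 1.87, 1.75 and 1.65 at P5. There were 1.81, 1.64 and 1.80 at P14, and 4.35, 4.41 and 4.92 at P90. The lowest P90 library was thus far above the highest library of any earlier age. From P1 to P90 the log2 ratio rose by 1.57. The adjusted exact permutation P, for any difference between the 4 ages, was 0.0047. In the fits without 1 library the rise lay between 1.52 and 1.65, and with the GC trend removed it was 1.33. The adjusted exact P over the ages was at most 0.0127 in the former and 0.0023 in the latter. The share of miR-196a-5p in the counts of this seed was thus higher in the adult than at any earlier age examined.

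MiR-615-3p, an intronic product of Hoxc5 with a seed of its own, is the richest in GC of the 7, at 63.6%, while the others lie between 36.4% and 45.5%. It stood at 287, 217 and 209 TMM CPM at P1 and at 262, 253 and 242 at P5. It stood at 304, 385 and 310.3 at P14 and at 215, 146 and 195 at P90. The P14 libraries were above those of every other age. Its log2FC was 0.49 ± 0.17 from P1 to P14 (Padj = 0.0288) and −0.85 ± 0.17 from P14 to P90 (Padj = 0.000576). With the GC trend removed, these became −0.14 (Padj = 0.425) and 0.63 (Padj = 0.0011), so that both directions turned with the correction for GC. The P1 to P14 call was also lost in 8 of the 12 fits without 1 library (Padj up to 0.162), with library totals alone (Padj = 0.0876), with totals without miR-1 (Padj = 0.127) and without the filter on low counts (Padj = 0.128). From P1 to P90 the log2FC was −0.36 ± 0.17 (Padj = 0.0791). This comparison was called higher with the GC trend removed (0.49, Padj = 0.00559) and with upper-quartile factors (1.52, Padj = 2.46e-06). It was called lower with totals without miR-1 (−0.82, Padj = 0.000376), with library totals alone (−2.61, Padj = 2.77e-08) and in 3 of the 12 fits without 1 library.

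Mir615 lies in the Hoxc cluster with 1 of the 2 miR-196a hairpins, and miR-615-3p was compared within libraries with miR-196a-5p, whose counts also hold the product of the Hoxb copy. In order of age there were 0.276 ± 0.0456, 0.251 ± 0.0334, 0.455 ± 0.145 and 0.101 ± 0.0113 counts of miR-615-3p per count of miR-196a-5p (SD, n = 3, adjusted exact permutation P = 0.00227). With the GC trend removed the adjusted exact P was 0.598. The ratio of miR-196a-5p to miR-10b-5p, the posterior against the more anterior family, was 0.623 ± 0.157, 0.660 ± 0.161, 0.289 ± 0.0897 and 0.614 ± 0.114 at the 4 ages. Its mean was lowest at P14, and the adjusted exact P over the 4 ages was 0.0274. The adjusted P was, however, above 0.05 in 4 of the 12 tests without 1 library, reaching 0.0695 without P14 replicate 2.

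**Figure D3:**
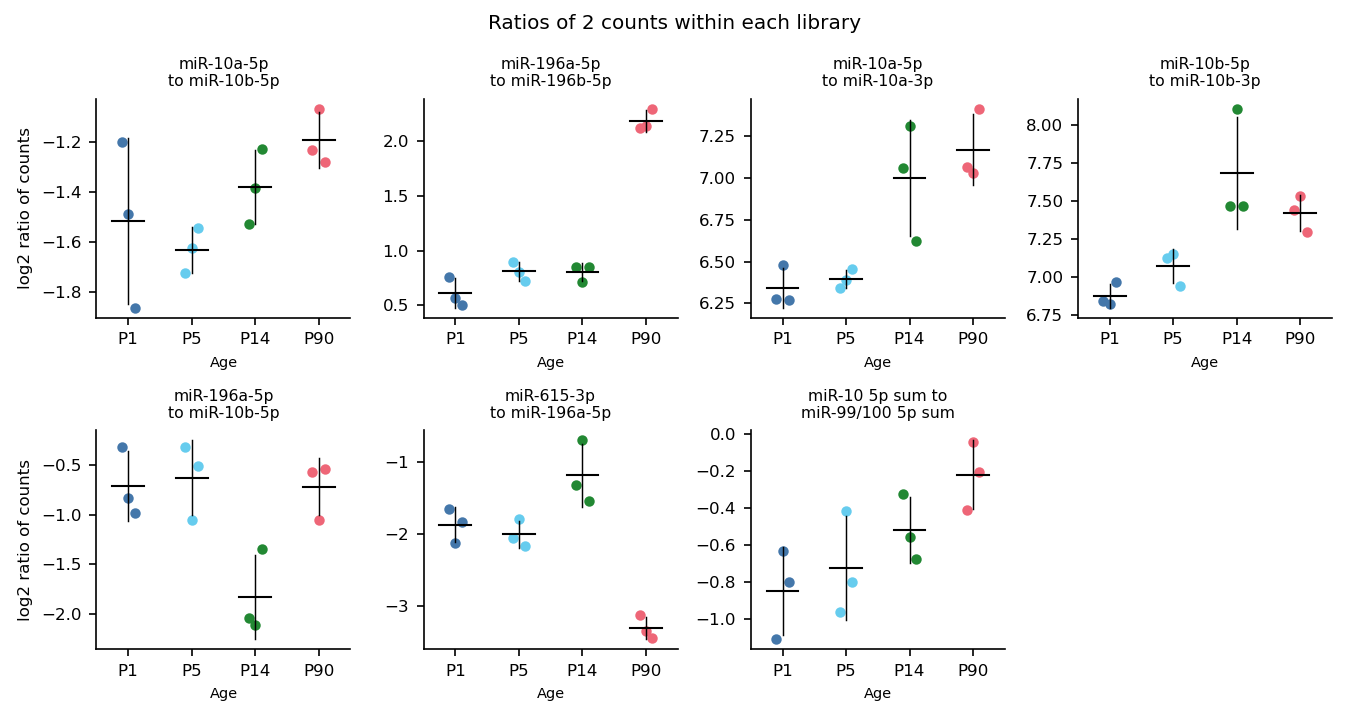
Log2 ratio of counts within each library by age, with 1 point per library, the mean as a horizontal bar and the SD as a vertical bar (n = 3), for the 7 ratios. The ratio of miR-196a-5p to miR-196b-5p is between 1.42 and 1.87 on the linear scale at P1, P5 and P14 and between 4.35 and 4.92 at P90.

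The other arms of these hairpins were close to the limit of detection. MiR-196a-1-3p, the arm that is particular to the Hoxb copy of miR-196a, had 34, 33 and 12 counts at P1 and 8, 16 and 4 at P5, and 0 in all 6 libraries of P14 and P90. Against the mean of the P1 libraries, a floor of 3 counts per library put it at least 7.45-fold lower at P14 and 3.32-fold lower at P90. Single P1 libraries ranged from 0.286 to 0.900 TMM CPM, and the mean floors were 0.0871 at P14 and 0.196 at P90. MiR-196a-1-3p passed the filter on low counts only through the early ages, so that no test is given for it. MiR-196a-2-3p, from the Hoxc copy, had 2 to 13 counts at P1 and 0 to 12 at P5. It had 0 in the P14 libraries and 9, 0 and 5 in the P90 libraries, and it did not pass the filter. MiR-196b-3p had 0 to 23 counts and miR-615-5p 0 to 35 counts, too few for a call or its absence to be read. At these counts, which hairpin gives the adult miR-196a-5p cannot be told apart.

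Outside the Hox clusters, miR-99a-5p, miR-99b-5p and miR-100-5p are related in sequence to miR-10 but have another seed.
miR-100-5p: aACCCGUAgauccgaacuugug
It shares a run of 11 bases with miR-10a-5p. MiR-100-5p rose with a log2FC of 1.65 ± 0.14 from P1 to P90 (Padj = 1.91e-08) and miR-99a-5p with one of 0.93 ± 0.12 (Padj = 5.03e-06). MiR-99b-5p, with a GC content of 63.6%, fell by 1.00 ± 0.13 on the log2 scale (Padj = 4.6e-06), but with the GC trend removed its log2FC was −0.14 and was not called (Padj = 0.306). The counts of both miR-10 5p arms per count of these 3 miRNAs were 0.560 ± 0.0911, 0.612 ± 0.123, 0.701 ± 0.0882 and 0.864 ± 0.110 at the 4 ages. The adjusted exact P of 0.0487 rose above 0.05 in 10 of the 12 tests without 1 library, up to 0.16 without P90 replicate 2. With the GC trend removed the log2 ratio changed by 0.13 from P1 to P90 in place of 0.63, and P14 was then the highest age (adjusted exact P = 0.026).

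How the P90 libraries are scaled decides the direction of most of these changes. With library totals alone all 7 members were lower at P90 than at P1, with log2FC from −2.77 for miR-196b-5p to −0.88 for miR-10a-5p. With upper-quartile factors all 7 were higher. The median log2FC of all tested miRNAs moved as well, to −2.97 and 1.177 in these 2 cases. Relative to that median, miR-10a-5p was higher by 2.09 to 2.11, miR-10b-5p by 1.75 to 1.78, miR-196a-5p by 1.76 to 1.80, miR-196b-5p by 0.20 to 0.22 and miR-615-3p by 0.34 to 0.36 on the log2 scale over 5 scalings. A scaling shifts all miRNAs of a library alike, so the near-constant distance from the median follows from how it is computed. With the GC trend removed, the rises of miR-10a-5p, miR-10b-5p and miR-196a-5p were called (log2FC 1.15, 0.82 and 0.71).

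**Figure D4:**
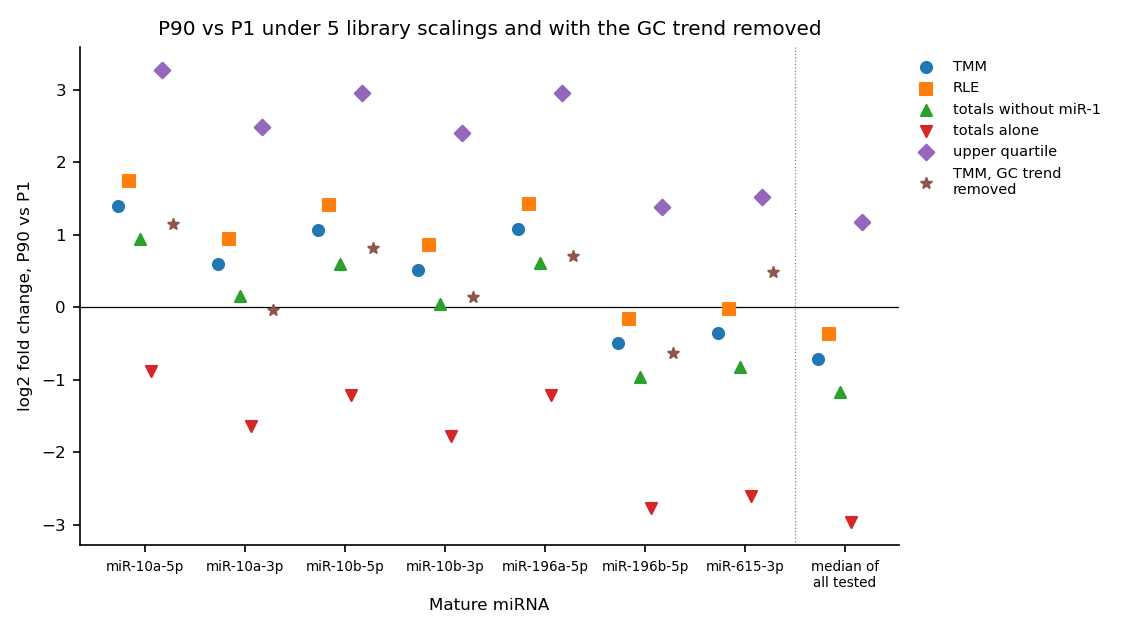
Log2FC from P1 to P90 of the 7 members under 5 library scalings and after removal of the GC trend, with the median of all tested miRNAs at the right for the 5 scalings. The values shift together, from −0.88 to 3.28 for miR-10a-5p, and the median shifts with them, since a scaling moves all miRNAs of a library alike.

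MiRNAs whose log2 CPM followed a member most closely over the 12 libraries were sought among 340 candidates. For miR-10a-5p these were miR-23a-3p (r = 0.958), miR-361-3p (0.946) and miR-145a-5p (0.945), and for miR-10b-5p miR-151-3p (0.938), miR-23a-3p (0.935) and miR-145a-5p (0.927). For miR-196a-5p they were let-7g-5p (0.957), let-7f-5p (0.945) and miR-1b-5p (0.943), for miR-196b-5p miR-199b-3p (0.895), miR-199a-3p (0.892) and miR-205-5p (0.870), and for miR-615-3p miR-1981-3p (0.961), miR-125a-3p (0.931) and miR-574-3p (0.906). The points share the scaling of each library and its age. MiR-10a-5p and miR-10b-5p correlated at r = 0.951, and miR-196a-5p and miR-196b-5p at r = −0.194.

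Markers of cell types were followed over the same ages. The ranges of P1 and P90 overlapped for blood cells, surface epithelium and nervous tissue. The sums rest on the TMM scaling, and the calls are those from P1 to P90. The summed TMM CPM of 4 miRNAs of endothelium and smooth muscle, among them miR-126a and miR-145a-5p, was 20517 to 24108 at P1 and 66721 to 86278 at P90. Of these, 4 of 4 were upregulated (25.2% of all tested). That of 5 miRNAs of mesenchyme and cartilage, among them miR-199a and miR-140, was 11513 to 18638 at P1 and 2403 to 3206 at P90. Of these, 4 of 5 were downregulated (41.2% of all tested). Markers of blood cells (6 miRNAs) summed to 513 to 707 at P1 and 619 to 786 at P90, with 2 upregulated and 2 downregulated. Those of surface epithelium (6 miRNAs) summed to 196 to 316 and 151 to 420, with 0 upregulated and 2 downregulated. Those of nervous tissue (4 miRNAs, 3 tested) summed to 94.8 to 189 and 188 to 243, with 2 upregulated and 0 downregulated. The 7 markers of skeletal muscle, miR-1a-3p included, summed to 154579 to 208206 and 1455480 to 2374480, with 3 upregulated and 3 downregulated. The part of these cell types in the course of the Hox miRNAs was not tested. In whole muscle, fewer cells of a type and less miRNA per cell cannot be told apart.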

How the data were processed

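Small RNA libraries of quadriceps from 4 ages, 3 per age, were analysed from the table of raw counts that the authors deposited. Per the labels and the methods of the study, the authors size-selected reads with cutadapt (1.18), aligned them to GRCm38 with Bowtie2 (2.4.1) and counted them per mature miRNA on the miRBase annotation with featureCounts (2.0.1). The strand and multi-mapping options of the counting are not given in the sources used here, which matters for miR-196a-5p, whose sequence has 2 loci. Groups and replicate numbers came from the sample titles. Library totals were 20363495 to 53126984 counts, and intervals and floors (3 counts) cover counting error only.

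Here 809 of 1966 miRNAs passed filterByExpr and were tested with edgeR 4.0.16 (R 4.3.3) on the deposited counts with TMM factors, 1 mean per age and 1 fit over the 12 libraries. SE were derived from the F statistic. Ratios used counts plus 0.5, with exact permutation tests (2-sided by construction, on the between-age sum of squares) adjusted over 7 ratios. Alternatives comprised other scalings, no filter, DESeq2 1.42.0, a per-library GC trend (mature sequences from RefSeq for 85% of the tested miRNAs, mean CPM of at least 10), the replicate number as a block, 2 ages only in the fit and each library left out. The GC removal for the ratios, and the alternatives for the 3 related miRNAs, were added after the data were seen. The scripts were tested on simulated data.

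The text names all 7 members, the 4 other arms of their hairpins, 3 related miRNAs outside the Hox clusters, miR-1a-3p, for each of 5 members the 3 miRNAs with the highest correlation, and examples of 2 cell type marker lists (miR-126a, miR-145a-5p, miR-199a and miR-140). The members and lists were chosen with earlier results of these data known. Host introns and exons came from GENCODE vM39 on GRCm39, whose coordinates were not used.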

Additional observations from a re-analysis of the deposited data

How the results depend on the processing

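Of 1072 values computed under alternatives for 51 results, 872 kept their direction and their side of the threshold (for counts, stayed within 1.5 times). For P14 to P90 the number of members called was 2 (478 of the 809 miRNAs tested), and became 5 with RLE size factors (481 of 809). With library totals alone it was 7, all lower (646 of 809), and with upper-quartile factors 7, all higher (541 of 809). It was 5 in DESeq2 (496 miRNAs called), 5 with 2 ages only in the fit (443 called) and 4 without P5 replicate 2 (483 called). Without 1 library the range was 2 to 4. Direction turned as follows, in log2FC, and the cause was not tested. With library totals alone, P1 to P90 gave −0.88 for miR-10a-5p, −1.64 for miR-10a-3p, −1.22 for miR-10b-5p, −1.78 for miR-10b-3p, −1.21 for miR-196a-5p, −1.33 for miR-99a-5p and −0.61 for miR-100-5p. P14 to P90 then gave −1.89, −2.01, −2.10, −1.86 and −0.97 for the first 5 of these in that order. P1 to P5 gave −0.28 for miR-10a-5p, −0.18 for miR-10b-5p, −0.073 for miR-196a-5p, −0.27 for miR-196b-5p and −0.21 for miR-615-3p. With upper-quartile factors, P1 to P90 gave 1.39 for miR-196b-5p, 1.52 for miR-615-3p and 0.89 for miR-99b-5p, P14 to P90 1.46 and 0.72 for the first 2, P1 to P14 0.12 for miR-196a-5p and P1 to P5 0.018 for miR-10a-3p. Without miR-1a-3p and miR-1b-5p in the totals, P14 to P90 gave −0.083 for miR-10a-3p and −0.14 for miR-10b-5p, P1 to P14 −0.042 for miR-10b-3p, and P1 to P5 −0.092 for miR-10a-5p, −0.088 for miR-196b-5p and −0.032 for miR-615-3p. With RLE factors and in DESeq2, miR-196b-5p gave 0.25 and 0.25 from P14 to P90, and miR-10a-3p 0.034 and 0.026 from P1 to P5. With 2 ages only in the fit, miR-196b-5p gave 0.19 from P14 to P90.

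With the GC trend removed, and in brackets with the replicate block added, P14 to P90 gave −0.071 (−0.075) for miR-10a-5p, −0.90 (−0.92) for miR-10a-3p, −0.27 (−0.27) for miR-10b-5p, −0.27 (−0.27) for miR-10b-3p and 0.63 (0.63) for miR-615-3p. P1 to P90 gave −0.041 (−0.043) for miR-10a-3p and 0.49 (0.49) for miR-615-3p, P1 to P14 0.085 (0.067) for miR-196a-5p and −0.14 (−0.14) for miR-615-3p, and P5 to P14 −0.27 (−0.27) for miR-615-3p. The ratio of miR-615-3p to miR-196a-5p then changed by −0.20 from P1 to P90 and lost its call.

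Without 1 library, P1 to P5 ranged from −0.11 to 0.17 for miR-10a-5p, −0.14 to 0.095 for miR-10a-3p, −0.025 to 0.26 for miR-10b-5p, −0.21 to 0.098 for miR-10b-3p, −0.069 to 0.13 for miR-196b-5p and −0.014 to 0.23 for miR-615-3p. MiR-10b-3p ranged from −0.072 to 0.35 from P5 to P14 and −0.15 to 0.28 from P1 to P14, and miR-196b-5p from −0.19 to 0.12 from P14 to P90. The P90 minus P1 log2 ratio ranged from 0.15 to 0.48 for miR-10a-5p to miR-10b-5p, −0.15 to 0.19 for miR-196a-5p to miR-10b-5p and 0.50 to 0.74 for miR-10 to miR-99 and miR-100.

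Replicate numbers did not pair the libraries. Deviations of the 18 pairs with the same number correlated at −0.0726 to 0.14, and 3 of 12 libraries correlated best with their own number. With the replicate block alone, 48 of 51 results kept their direction and their side of the threshold (for counts, stayed within 1.5 times). The number of members called from P5 to P14 went from 3 to 2, and that of all miRNAs called from 359 to 335. For the ratios of miR-196a-5p to miR-10b-5p and of miR-10 to miR-99 and miR-100, the adjusted exact P over the ages was 0.0628. Their log2 change from P1 to P90 stayed at −0.0099 and 0.63. MiR-196b-5p had a Padj of 0.0505 from P5 to P14. Depth limits the 3p arms of miR-196 and miR-615-5p, with at most 35 counts in a library.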
